A study of Mus musculus with 6 samples.

Results

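The 10 genes described here make serine, carry its one-carbon unit on folate, or take part in the ATF4 stress programme. They were Phgdh, Psat1, Shmt1, Shmt2, Mthfd2, Asns, Atf4, Ddit3, Trib3 and Sesn2, taken by symbol from a table of 23366 genes, and all 10 were found. The set was put together with earlier results of these mice in view, and Shmt2 was in it because its values were lower in the depleted mice. The values below are therefore a description of the same mice that chose the genes, and no test is read as support for any of the 10.

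PHGDH and PSAT1 catalyse steps of serine synthesis from a glycolytic intermediate, and serine hydroxymethyltransferase (SHMT) then splits serine into glycine and a one-carbon unit carried by folate. When amino acids run short, when unfolded protein gathers in the endoplasmic reticulum (ER) or when mitochondria fail, kinases phosphorylate the translation factor eIF2, general translation slows and ATF4 protein is made. ATF4 then drives transcription of serine synthesis, mitochondrial folate and asparagine synthesis genes, and of the stress genes Ddit3, Trib3 and Sesn2. In the brain PHGDH is found mainly in astrocytes, which supply serine to neurons.

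RNA was sequenced from the frontal cortex of 3 microglia-depleted mice at d10 post depletion, named A4 to A6, and from 3 littermate control mice, named A1 to A3. Each mouse gave 1 library. Depleted mice were CX3CR1-CreERT2+/- iDTR+/-, so that Cre, expressed from the CX3CR1 promoter and switched on by tamoxifen, allowed expression of the diphtheria toxin receptor in microglia and other CX3CR1-expressing cells. Control mice were CX3CR1-CreERT2+/- without the receptor. Both genotypes were on a C57BL/6 background, were matched for age and sex and were given tamoxifen, and depletion was induced with diphtheria toxin. The methods used here do not state the mice's age, or whether control mice received the toxin, and effects of depletion and of toxin exposure cannot be told apart.

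The values were FPKM, fragment counts scaled by transcript length and by library size, which allow levels of different genes to be set side by side. The fragments behind them, estimated from the step size of the lowest values, ranged from 11.27 to 20.47 M in 5 libraries and came to 3.56 M in A5. Counted at 7.12 M, double this depth, 92.3% of the low A5 values lying within 0.2 of a whole number of fragments fell on even numbers, so the smaller depth was kept. A4 stood apart from the other depleted mice in its interferon genes: the summed FPKM of 20 type I interferon response genes was 523 in A4, far above the 105 of A5 and 102 of A6, against 41.6 to 57.0 in the control mice. The difference of each of the 10 genes that was fitted is therefore also given without A4 and without A5, and those of other genes where 1 mouse carried them. Neuron markers summed to 4310 to 4764 FPKM in the control mice and 4172 to 4577 in the depleted mice. Microglia markers summed to 287 to 375 and 349 to 467 FPKM, so the groups overlapped in this sum. The sum hides a split list: of the 15 markers, 11 were higher on average in the depleted mice and 4 lower. Aif1 was the highest and Fcrls the lowest of these differences. By the paper's account microglia were lost soon after the toxin and had repopulated by d10.

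Promoter sequence was examined for the letters TGATGNAA, the composite element bound by ATF4 with a C/EBP partner, on both strands of the 250 bases before each RefSeq start (GRCm38.p6). These letters stood in 3.45% of 32851 promoters and in 1 of the 10 genes. That gene was Asns, where they began 23 bases before the start. The palindromic E-box CACGTG stood in 6.02% of promoters and in none of the 10. The Asns site, in capitals within 30 bases, is printed first because it was the only match. The 250 bases before Shmt2 and Mthfd2 follow because these 2 genes had the most clearly separated groups among the serine and folate enzymes. Neither holds the letters, which says nothing of binding elsewhere.
Asns (chr6:7693214-7693243, minus strand): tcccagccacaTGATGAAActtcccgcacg
Shmt2 (chr10:127522445-127522694, minus strand): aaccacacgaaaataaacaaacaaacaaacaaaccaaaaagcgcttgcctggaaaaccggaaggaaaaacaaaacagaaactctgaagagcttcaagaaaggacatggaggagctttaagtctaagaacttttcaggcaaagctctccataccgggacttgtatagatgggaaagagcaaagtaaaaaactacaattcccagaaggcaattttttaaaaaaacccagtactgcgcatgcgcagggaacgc
Mthfd2 (chr6:83317605-83317854, minus strand): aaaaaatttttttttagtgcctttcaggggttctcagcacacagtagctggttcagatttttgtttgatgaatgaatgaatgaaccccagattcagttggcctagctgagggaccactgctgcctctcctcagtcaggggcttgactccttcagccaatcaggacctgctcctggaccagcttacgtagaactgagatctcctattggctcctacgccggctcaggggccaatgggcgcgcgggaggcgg

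In the control cortex the 10 genes spanned levels from well under 1 to over 80 FPKM. Atf4 was highest at 85.7 ± 4.15 FPKM (SD, n = 3 here and throughout), followed by Psat1 at 62.9 ± 2.95 and Asns at 61.1 ± 1.20. Phgdh at 42.2 ± 6.45 and Ddit3 at 31.4 ± 1.35 came next. Shmt2 stood at 10.0267 ± 0.397, Mthfd2 at 4.83 ± 0.244 and Sesn2 at 4.07 ± 0.460. Shmt1 at 0.733 ± 0.0451 and Trib3 at 0.243 ± 0.0764 were the lowest. Among neighbours in this order, the ranges of the control mice overlapped only for Psat1 and Asns. Between the isoenzymes, the mitochondrial Shmt2 exceeded the cytosolic Shmt1 by 12.3 to 14.7 times in each control mouse.

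**Figure D1:**
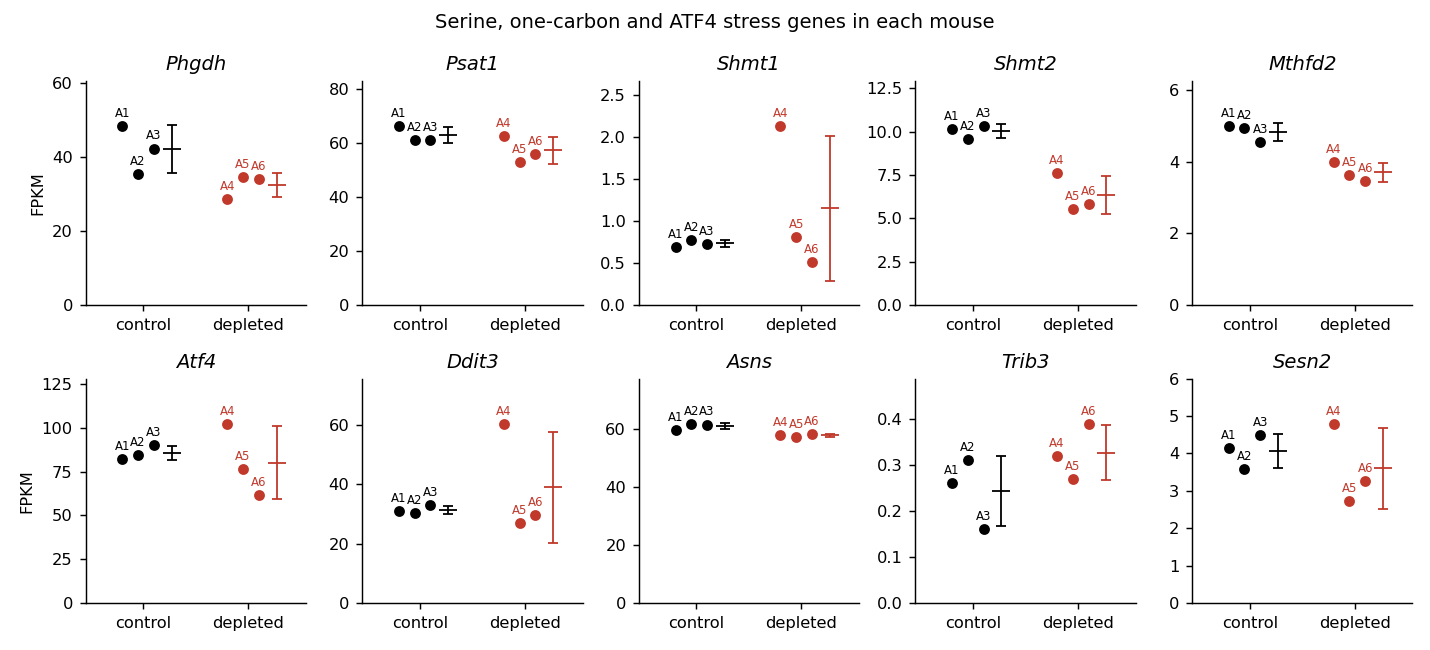
FPKM of each of the 10 genes in each mouse, with control mice in black and microglia-depleted mice in red; the bar beside each group is the mean with its SD (n = 3), and each panel has its own axis from 0. For Shmt2, Mthfd2, Phgdh and Asns all 3 depleted mice lie below all 3 control mice, while A4 lies above every other mouse for Shmt1, Atf4, Ddit3 and Sesn2.

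Shmt2 had the largest difference of the set on the log2(FPKM + 1) scale. This gene (chr10:127517123-127522444, GRCm38, minus strand) encodes the mitochondrial enzyme that converts serine to glycine and loads folate with the one-carbon unit. Its level was 10.16, 9.58 and 10.34 FPKM from A1 to A3 and 7.60, 5.57 and 5.84 FPKM from A4 to A6. All 3 depleted mice were below all control mice, and A4 was the nearest to them. The depleted mean was 6.34 ± 1.1 FPKM, a difference of -36.8% from the control mean. On this scale, used for all fold changes here, the log2 fold change was -0.60 with a standard error (SE) of 0.12. It was -0.72 without A4 and -0.52 without A5. The A5 value rested on about 45.4 fragments, a counting error of 14.8%. Shmt2 shares 32 exonic bases, 1.03% of its own, with Ndufa4l2 on the opposite strand. Ndufa4l2 stood at 2.18, 0.96 and 1.69 FPKM in the control mice and 1.87, 0.58 and 0.74 FPKM in the depleted mice, with overlapping groups. Shmt2 is also a GC-rich transcript (57.4% GC), and its difference was -0.52 after each mouse was centred on genes of like GC content.

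Mthfd2, the mitochondrial enzyme that oxidises the folate-bound unit which Shmt2 makes, was also lower in every depleted mouse. Its level was 5, 4.94 and 4.55 FPKM from A1 to A3 and 4, 3.64 and 3.46 FPKM from A4 to A6. The groups did not overlap, and the depleted mice lay close together. Their mean was 3.70 ± 0.275 FPKM, -23.4% against the control mean, with a log2 fold change of -0.31 (SE 0.11). This difference was -0.36 without A4 and -0.30 without A5. The A5 level came from about 27 fragments.

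Shmt1, the cytosolic counterpart of Shmt2, was low throughout and did not share its pattern. Its level was 0.69, 0.78 and 0.73 FPKM from A1 to A3 and 2.13, 0.81 and 0.51 FPKM from A4 to A6. The groups overlapped, since A4 stood far above the control mice, A5 just above them, and A6 was the lowest of all. The log2 fold change of 0.24 (SE 0.26) became -0.07 without A4 and was 0.33 without A5. Adding 1 FPKM shrinks differences of genes this low. With 0.1 FPKM added instead it was 0.37, and the depleted mean, raised by A4, differed by 56.8% from the control mean. The level of Shmt2 per unit of Shmt1 was 3.57, 6.88 and 11.5 in A4, A5 and A6, all under the lowest control ratio of 12.3. Shmt1 came from only about 8.24 fragments in A5 and 16.4 in A6, with counting errors of 34.8% and 24.7%. The ratio of A6 is therefore not set apart from those of the control mice. Shmt2 was also chosen for its lower values, which lowers this ratio. Shmt1 shares 184 exonic bases with Smcr8 on the opposite strand, and the strand of the libraries was not stated. Smcr8 stood at 6.60, 7.11 and 6.62 FPKM in the control mice and 9.94, 8.48 and 7.95 FPKM in the depleted mice, also highest in A4.

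Phgdh, which encodes the first enzyme of serine synthesis, was lower in the depleted mice with wide spread among control mice. Its level was 48.52, 35.62 and 42.39 FPKM from A1 to A3 and 28.81, 34.61 and 34.16 FPKM from A4 to A6. The groups did not overlap, but the highest depleted mouse and the lowest control mouse nearly met. The depleted mean was 32.5 ± 3.23 FPKM, -22.9% against the control mean, with a log2 fold change of -0.36 (SE 0.12), -0.28 without A4 and -0.40 without A5. Of the 75-base windows of Phgdh transcripts, 35.8% occur in other annotated genes, mainly pseudogenes, so its reads may have been divided among copies and its level is uncertain. Psat1, the next enzyme of the pathway, stood at 66.27, 61.12 and 61.19 FPKM in the control mice and 62.69, 52.92 and 55.98 FPKM in the depleted mice. Its groups overlapped through A4, with a log2 fold change of -0.14 (SE 0.084), -0.20 without A4 and -0.08 without A5. A4 thus had the lowest Phgdh and the highest Psat1 of the depleted mice.

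By their median, though not by their sum, markers of astrocytes, the main source of PHGDH in brain, were lower in each depleted mouse, as Phgdh was. The median departure of the 15 astrocyte markers from the control mean was 0.10, -0.09 and -0.01 in A1, A2 and A3, and -0.18, -0.13 and -0.14 in A4, A5 and A6 (log2 scale). For Phgdh these departures were 0.21, -0.23 and 0.02, then -0.52, -0.27 and -0.29, so A1 was highest and A4 lowest in both by this median. By summed level A4 was instead the highest depleted mouse, at 1691 FPKM, above A2 and A3. Of the 15 markers, 10 had a lower mean in the depleted mice and 5 a higher one, Gfap the most. Their summed level was 1557 to 1753 FPKM in the control mice and 1534 to 1691 FPKM in the depleted mice, and none was at 0 in all mice. In bulk tissue, fewer cells of a type and less RNA per cell cannot be told apart. Oligodendrocyte markers were lower too, at 3113 to 3391 FPKM summed in the control mice and 2739 to 2836 FPKM in the depleted mice, with all 12 lower on average. The part of cell content in the differences of Phgdh, Shmt2 and Mthfd2 was not tested.

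Atf4, the transcription factor of the stress programme, is controlled mainly through translation, so its mRNA reports only part of its regulation. Its level was 82.30, 84.55 and 90.35 FPKM from A1 to A3 and 102.48, 76.69 and 61.48 FPKM from A4 to A6. The depleted mice spread to both sides of the control mice, with A4 above and A5 and A6 below. The log2 fold change of -0.12 (SE 0.16) was -0.31 without A4, -0.11 without A5 and 0.05 without A6, so 1 mouse set its sign.

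Ddit3 encodes CHOP, a partner and target of ATF4 linked to cell death under lasting ER stress. Its level was 30.97, 30.35 and 32.94 FPKM from A1 to A3 and 60.54, 26.87 and 29.68 FPKM from A4 to A6. Only A4 was above the control mice, at 1.93 times their mean, and the other depleted mice were below all of them. The log2 fold change was 0.21 (SE 0.26), and it was -0.15 without A4 and 0.42 without A5. The level of Ddit3 per unit of Atf4 was 0.359 to 0.376 in the control mice and 0.591, 0.350 and 0.483 in A4, A5 and A6. A4 was also the mouse with the highest interferon gene levels, and the part of this in its Ddit3 level was not tested.

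Asns, the asparagine synthetase gene and a standard ATF4 target, varied least of the set. Its level was 59.74, 61.96 and 61.63 FPKM from A1 to A3 and 57.98, 57.35 and 58.21 FPKM from A4 to A6. The groups did not overlap, yet the means differed by only -5.34%. The log2 fold change was -0.08 (SE 0.064), the same size without A4, -0.07 without A5 and -0.12 after centring on GC content.

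Sesn2, a stress-induced sestrin that restrains the growth kinase mTORC1 when leucine is scarce, overlapped between groups. Its level was 4.15, 3.58 and 4.49 FPKM from A1 to A3 and 4.80, 2.73 and 3.27 FPKM from A4 to A6. A4 was again above all other mice, and A5 and A6 were below all control mice. The log2 fold change of -0.16 (SE 0.18) was -0.34 without A4, -0.02 without A5 and -0.06 after centring on GC content. Trib3, a pseudokinase that feeds back on ATF4, was read from about 1.95 fragments in A5 and 5.94 to 12.9 in the others. It stood at 0.26, 0.31 and 0.16 FPKM in the control mice and 0.32, 0.27 and 0.39 FPKM in the depleted mice, with overlapping groups, and was not tested.

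**Figure D2:**
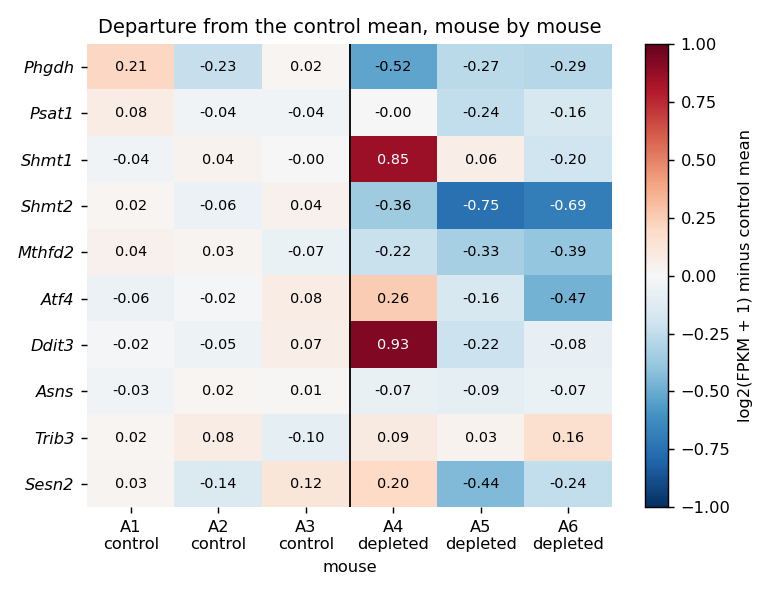
Departure of each of the 10 genes from the control mean on the log2(FPKM + 1) scale, by mouse, with blue for lower and red for higher and the value in each cell. The Shmt2 row is blue in all 3 depleted mice (-0.36, -0.75 and -0.69), while the A4 column holds the 2 strongest red cells, Ddit3 (0.93) and Shmt1 (0.85).

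Read by mouse, A4 stood apart from the other depleted mice for some of the genes only. A4 was the highest mouse for 4 of the 10 genes, Shmt1, Atf4, Ddit3 and Sesn2. For Shmt2, Mthfd2, Phgdh and Asns it lay below all control mice, as A5 and A6 did. For 9 of the 10 the lowest mouse was a depleted mouse, and for 8 it was A5 or A6. How often all genes tested are highest or lowest in these mice was not computed, so nothing is read from these counts.

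The 14385 genes that averaged 0.5 FPKM or more were compared between groups with limma, and 9 of the 10 genes passed this filter, all but Trib3. At an adjusted p-value under 0.1, limma called 4 of all genes tested (0.0278%), all upregulated, and 0 of the 9. The authors' test of raw counts called many more genes at that threshold, in both directions. A low count here therefore does not show that genes were unchanged. At an unadjusted p-value under 0.05, 3 of the 9 were lower (Shmt2, Mthfd2 and Phgdh) and 0 higher, against 5.74% lower and 4.79% higher of all genes tested. The groups did not overlap for 4 of the 9, all lower, against 9.38% lower and 8.21% higher of all genes tested. Since this contrast chose the set, nothing is read from these counts. The median log2 fold change was -0.14 over the 9 and -0.01 over all genes tested.

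**Figure D3:**
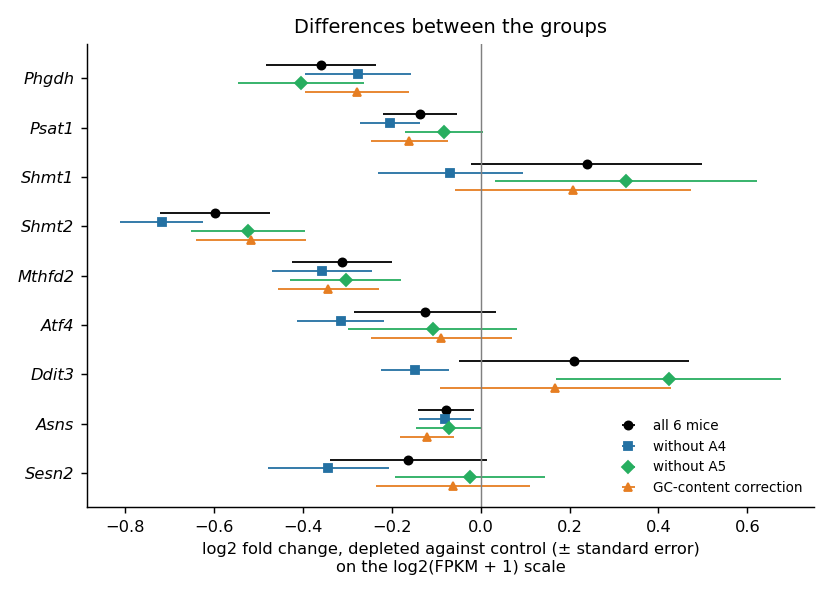
Log2 fold change, depleted against control, of the 9 genes tested, with the SE of the limma fit as the bar, for all 6 mice, without A4, without A5 and after centring on GC content. Shmt2, Mthfd2, Phgdh, Psat1, Asns, Atf4 and Sesn2 lie below 0 in all 4 fits, while Shmt1 and Ddit3 change sign without A4.

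GC content moved with the groups across the transcriptome. The median log2 fold change of genes in 20 bins of transcript GC content was 0.02 near 50% GC and -0.15 in the bin of highest GC. Shmt2 (57.4%), Phgdh (57.2%), Sesn2 (58.7%) and Atf4 (55.5%) were GC-rich against a median of 49.8% over genes tested, and Mthfd2 (49.6%), Shmt1 (49.2%), Psat1 (48.4%), Asns (47.7%) and Ddit3 (45.6%) were not. After centring, Phgdh stood at -0.28 and Mthfd2 at -0.34, and all 9 genes kept their sign.

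**Figure D4:**
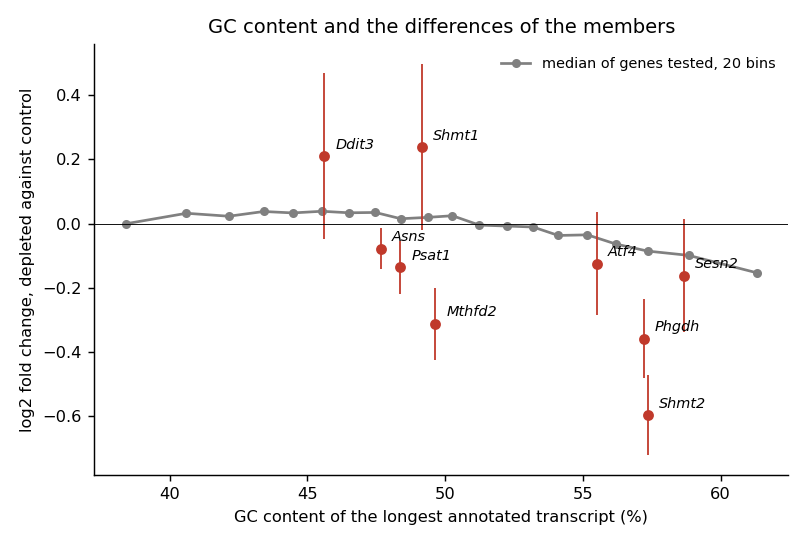
Log2 fold change of the 9 genes tested (red, bar = SE) against the GC content of their longest annotated transcript, with the median of all genes tested in 20 GC bins in grey. The grey line declines above 53% GC, and Shmt2 at -0.60 lies below it, as does Mthfd2 at -0.31.

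The other genes of these pathways, 161 in 7 lists, gave 152 tested genes. The lists were chosen by function but with earlier results of these mice known, so nothing particular to them is read from their counts. Limma called 0 of them at an adjusted p-value under 0.1, and the smallest adjusted p-value was 0.296. At an unadjusted p-value under 0.05, 3 were higher (1.97%) and 11 lower (7.24%), against 4.79% and 5.74% of all genes tested. The groups did not overlap for 9 genes in the higher direction (5.92%) and 16 in the lower (10.5%), against 8.21% and 9.38%. Their median log2 fold change was 0.0044. These shares of all genes tested are also the comparison for the counts of each single list below. Slc6a9 and Cth are counted both in the serine and glycine list and in the list of ATF4 targets.

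Among 18 tested genes of serine and glycine metabolism, 0 were higher and 2 lower at an unadjusted p-value under 0.05, Gldc and Slc6a9, with a median of -0.02. Gldc, the glycine decarboxylase that degrades glycine in mitochondria, stood at 8.41, 7.79 and 7.88 FPKM in the control mice and 3.27, 5.46 and 4.72 FPKM in the depleted mice. The groups did not overlap, and unlike Shmt2 it was lowest in A4. Its log2 fold change was -0.74 (SE 0.16, limma adjusted p = 0.310), -0.57 without A4 and -0.87 without A5. Psph, the last enzyme of serine synthesis after Phgdh and Psat1, had overlapping groups and a log2 fold change of 0.16 (SE 0.10). The highest of the list was Slc1a5, a neutral amino acid transporter, at 0.18 (SE 0.18), but A5 carried this difference, which was 0.02 without that mouse.

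Among 27 tested genes of the folate and methionine cycle, 0 were higher and 1 lower at an unadjusted p-value under 0.05, and none had groups that did not overlap. Mthfd1, the cytosolic counterpart of the mitochondrial folate enzymes, had a log2 fold change of -0.04 (SE 0.11), which was 0.02 without A6. Mthfd1l, which releases formate from mitochondria, was 4.58, 4.49 and 4.34 FPKM in the control mice and 8.11, 4.90 and 3.77 FPKM in the depleted mice. It was highest in A4, like Shmt1 and Ddit3, with A5 just above and A6 below the control mice. Its log2 fold change was 0.22 (SE 0.22) with A4 and -0.04 without. Mthfd2l, a paralogue of Mthfd2, stood at -0.16 (SE 0.18), Aldh1l2 at -0.16 (SE 0.18, and 0.003 without A5) and the folate carrier Slc25a32 at 0.03 (SE 0.16, and -0.03 without A4). Aldh1l1, an astrocyte enzyme of folate oxidation, stood at -0.21 (SE 0.10, and -0.13 without A4).

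The extremes of the folate list rested on low levels. Gnmt was 2.02 FPKM in A4 and at most 0.77 FPKM elsewhere, with a log2 fold change of 0.44 (SE 0.30) that was 0.10 without A4. Folr1, a folate receptor of the choroid plexus, stood at -0.98 (SE 0.32, limma adjusted p = 0.396), with 1.99, 2.83 and 1.43 FPKM in the control mice and 0.16, 0.21 and 1.61 FPKM in the depleted mice. With 0.1 FPKM added in place of 1, Gnmt stood at 0.85 and Folr1 at -2.03. Folr1 is itself one of the choroid plexus markers listed here. These markers summed to 245 to 421 FPKM in the control mice and 123 to 139 FPKM in the depleted mice. All 10 tested, Folr1 included, were lower on average. In A6, Folr1 lay within the control range, while the marker sum was 139 FPKM. The part of choroid plexus content in the Folr1 level was not tested.

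The eIF2 kinases, subunits and phosphatases upstream of ATF4 had 0 of 18 tested genes at an unadjusted p-value under 0.05, and a median of 0.11 that was 0.04 without A4. Eif2ak2, which encodes the interferon-induced kinase PKR, was 2.34, 2.44 and 2.41 FPKM in the control mice and 9.04, 2.90 and 3.19 FPKM in the depleted mice. All 3 depleted mice were above the control mice, A4 by far the most, and the log2 fold change of 0.69 (SE 0.32, limma adjusted p = 0.498) was 0.25 without A4. Eif2ak4, which encodes the amino acid sensor GCN2, stood at 0.14 (SE 0.11), the ER stress kinase gene Eif2ak3 at -0.01 (SE 0.11) and Eif2ak1 at -0.04 (SE 0.097, and 0.03 without A4). Ppp1r15a, the stress-induced phosphatase subunit that reverses eIF2 phosphorylation, was 12.02 FPKM in A4 and 5.50 to 6.55 FPKM in the other 5 mice, so that A4 was its highest mouse, as for Ddit3. Its log2 fold change was 0.26 (SE 0.24) with A4 and -0.05 without.

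Among 38 tested targets and partners of ATF4, 1 was higher and 8 lower at an unadjusted p-value under 0.05, and the groups did not overlap for 1 in the higher and 10 in the lower direction, with a median of -0.08. Over all genes tested, 4.79% were higher and 5.74% lower by that p-value, and 8.21% and 9.38% by groups that did not overlap. The list was chosen with earlier results of these mice known, so nothing particular to it is read from the counts. The higher gene was Nupr1, and the lower ones were Chac1, Slc7a3, Atf5, Slc6a9 and the aminoacyl-tRNA synthetase genes Cars, Mars, Yars and Sars. Chac1, a glutathione-degrading enzyme induced by ATF4 and CHOP, stood at 5.51, 4.75 and 5.04 FPKM in the control mice and 1.93, 3.38 and 2.71 FPKM in the depleted mice. It was lowest in A4, the mouse with the highest Ddit3 and Atf4, and its log2 fold change was -0.75 (SE 0.16, limma adjusted p = 0.333). Atf5, a stress transcription factor, stood at -0.41 (SE 0.11), and at -0.26 after centring on GC content. Slc7a3, a cationic amino acid transporter, stood at -0.62 (SE 0.13). Its limma adjusted p-value of 0.296 was the smallest of the pathway lists, marker lists left aside. Slc7a11 (-0.06, SE 0.094), Ddit4 (0.10, SE 0.14) and Cebpb (0.20, SE 0.24) had overlapping groups, and without A4 Ddit4 stood at -0.03 and Cebpb at -0.07. Atf3, the highest of the list at 0.49 (SE 0.30), reached 2.62 FPKM in A4, and its log2 fold change was 0.17 without that mouse.

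The 3 remaining lists had medians between 0.0064 and 0.047. In the ER unfolded protein response, 1 of 23 tested genes was lower (Atf6b) and 0 higher at an unadjusted p-value under 0.05. The ER chaperone gene Hspa5 was 119.73, 120.45 and 138.11 FPKM in the control mice and 107.55, 163.96 and 159.12 FPKM in the depleted mice. A4 was here the lowest mouse and A5 and A6 the highest, the reverse of Ddit3, and the median of the list was 0.01 with A4 and 0.11 without. Atf6 and Sdf2l1 marked its ends at 0.22 (SE 0.098) and -0.28 (SE 0.19), the latter -0.08 without A4 and -0.49 without A6. Mitochondrial chaperones and proteases had 0 of 12 past that p-value, from Oma1 at -0.17 (SE 0.14) to Hspa9 at 0.16 (SE 0.096), which was 0.07 without A4. Of 18 tested genes of amino acid sensing, 2 were higher (Rheb and Rragc) and 0 lower, from Wdr24 at -0.36 (SE 0.17, and -0.21 without A6) to Rheb at 0.18 (SE 0.075). Sesn2's relatives Sesn1 and Sesn3 stood at 0.02 (SE 0.12), with -0.09 without A4, and -0.20 (SE 0.090).

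**Figure D5:**
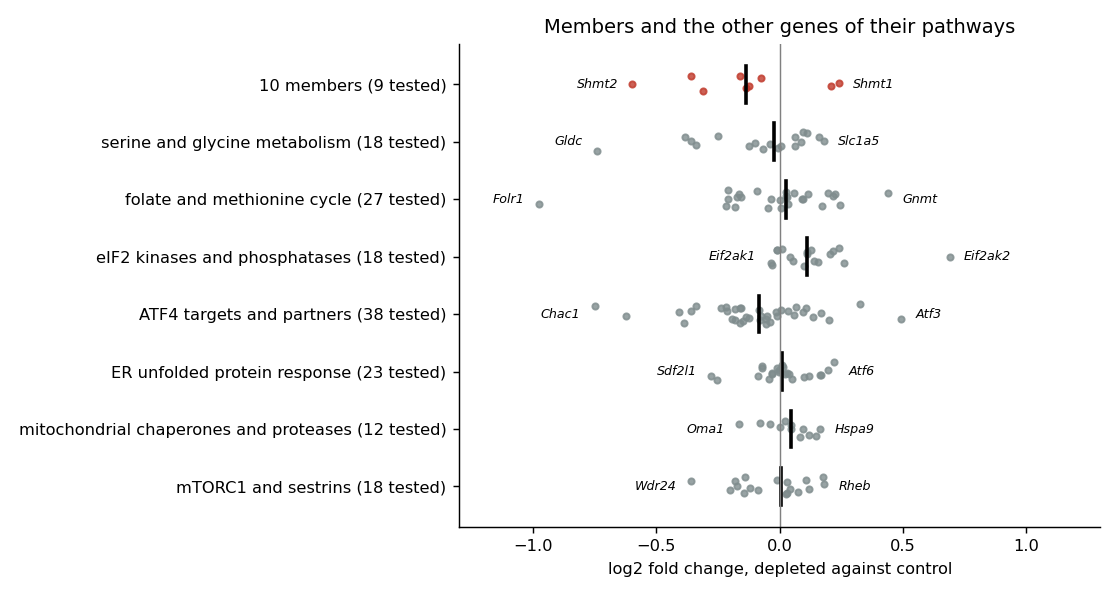
Log2 fold change of each gene tested (points) and the median (black bar) for the 10 genes described here, of which 9 were tested, and for the 7 lists of other pathway genes, with the end genes of each list named. Medians of the lists lie between -0.08 and 0.11, and Folr1, Chac1, Gldc and Eif2ak2 lie farthest from 0.

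The genes whose pattern over the 6 mice was most like that of Shmt2 were Gpr27, 2210404J11Rik, Cox6b2, Lurap1 and Gm16596. Likeness was the root mean square difference of log2(FPKM + 1) values centred on each gene's mean, and these 5 genes had values of 0.0613 to 0.0809. Like Shmt2, all 5 were highest in A3 and had A4 as the depleted mouse nearest to the control mice. They were picked for this likeness over the same mice, so the shared order is no separate finding. None of them belongs to the set or to the 7 lists.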

How the data were processed

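The authors prepared poly(A) libraries from cortical RNA of 6 mice, sequenced 75 bp read pairs, aligned them with TopHat and quantified known transcripts with RSEM. The table they deposited holds TMM-normalized FPKM per gene and mouse. The submitters' processing notes name mm9; tool versions were not given. The authors tested raw counts with DESeq, which were not used here, so a log-scale linear model took its place. Genes averaging 0.5 FPKM or more were put on the log2(FPKM + 1) scale, and limma 3.58.1 (R 4.3.3) compared the groups (lmFit, eBayes with trend, two-sided, no covariate, Benjamini-Hochberg adjustment, threshold 0.1). The fit was tested on simulated data.

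Fragments per library were estimated from FPKM steps in 2748 single-transcript genes; this depth has its own error, and counting errors cover counting only. Positions, GC content (99.1% of genes tested) and shared 75-base windows were read from GENCODE M21 (GRCm38) by gene symbol, and promoters from RefSeq (GRCm38.p6), where all 10 genes matched. Python 3.11.15, numpy 2.4.6, pandas 2.3.3 and matplotlib 3.10.9 were used.

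The 10 genes and all lists were chosen with earlier results of these data known. Genes named outside the set were the highest and lowest of each list, partner enzymes and feedback genes, and the 5 nearest to Shmt2. Nupr1, Slc7a3, Slc6a9, Cars, Mars, Yars, Sars, Atf6b and Rragc were chosen with their values in view. So were Smcr8, which overlaps Shmt1, and Ndufa4l2, which overlaps Shmt2. One partner enzyme is not reported here. Other settings tried were pseudocount, filter, scaling, variance model, array weights, threshold, leaving out each mouse and, added after seeing the data, centring each mouse in 20 bins of GC content.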

Additional observations from a re-analysis of the deposited data

How the results depend on the processing

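Of all genes tested, 4 were called at an adjusted p-value under 0.1. The count was 2 by eBayes without trend, 20 with array weights (which gave A4 the lowest weight, 0.304), and 2 to 29 when each mouse was left out, with 2 without A1, 8 without A6 and 29 without A5, and 3 or 4 under the other alternatives; the cause was not tested. Of the 9 genes described, array weights called Shmt2, which was chosen on these same values, so that the call supports nothing, and every other alternative called 0; of the other pathway genes, 0 were called under any alternative. The log2 fold change of Shmt2 lay between -0.72 (without A4) and -0.52 (centred on GC content) over 16 alternatives. Mthfd2, Phgdh, Psat1, Asns and Sesn2 also kept their sign. Shmt1 and Ddit3 changed sign without A4, and Atf4 without A6. No paired analysis was possible because the labels give the groups no shared replicate numbers. Depth limits Trib3, Shmt1 and every value of A5. Labels do not say whether the mice of a group came from separate litters or cages, so the spread between mice may include either.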
